A study of Mus musculus with 16 samples.

Results

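The interaction of PJ34 with kidney injury was examined gene by gene. PJ34 is a compound that blocks poly(ADP-ribose) polymerases (PARPs). The interaction is the difference between IRP and IRV minus the difference between NP and NV, so a positive log2 value marks a gene whose PJ34-minus-vehicle difference was higher in injured than in normal kidney. Its members were the 6732 genes whose mean over all 16 libraries reached 20 CPM (counts scaled to a common library total), out of 40472 genes in the table. All 6732 were among the 13614 genes that passed the low-count filter and were fitted. The least abundant member was Cops8 at a mean of 20.0086 CPM with a log2 interaction of -0.17. The first gene outside was Hmox1 at 19.9985 CPM with 0.43.

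Whole kidneys came from male C57BL/6 mice aged 12 weeks, in 4 groups of 4 libraries. Mice labelled normal had received vehicle (NV) or PJ34 (NP), and mice operated for ischemia reperfusion, a temporary stop of the renal blood supply, had received vehicle (IRV) or PJ34 (IRP). The study placed these groups in the longer term after injury. Neither the day of collection nor the dose is in the labels, and the labels do not say that each library came from a separate mouse, so p-values measure the spread between libraries. Kidney markers were present in every library, with Kap, an androgen-driven proximal tubule gene, at 4340 to 10900 CPM. Havcr1, which encodes the injury marker KIM-1, matched the injury labels, at 0.744 to 9.9 CPM in the 8 normal libraries and 21.7 to 133 CPM in the 8 injured ones.

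PARP1 and PARP2 bind broken DNA and build chains of ADP-ribose from NAD onto themselves and nearby proteins, which recruits repair factors. The glycohydrolase PARG takes the chains down again. Under heavy oxidative damage, as after ischemia and reperfusion, overactive PARP1 can drain cellular NAD and ATP and drive a regulated form of necrosis. The cells of the kidney most exposed are those of the proximal tubule, which depend on mitochondrial respiration.

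The libraries differed in depth along the comparison. A deep set of 6, made up of IRP and of IRV replicates 3 and 4, had totals of 4963638 to 6169748 counts. A shallow set of 10, made up of NV, NP and IRV replicates 1 and 2, had totals of 973812 to 1659983. Olfactory, vomeronasal, taste and trace-amine receptor genes together took 330.2 to 633.9 CPM in deep and 5095 to 9989 CPM in shallow libraries, and unnamed gene models took 6.588 to 7.783% against 22.89 to 34.77% of counts. With all 16 libraries, the IRP group was therefore compared with an IRV group of mixed depth. Without IRV replicates 1 and 2, each arm of the interaction compared libraries of like depth. The main results are given in both fits.

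No gene passed the test of the interaction. With edgeR's quasi-likelihood test and Benjamini-Hochberg adjustment over 13614 genes, 0 members were higher and 0 lower at an adjusted p under 0.05 (0% of genes fitted in each direction), and the lowest adjusted p was 0.326. At an unadjusted p under 0.05 there were 165 members higher and 271 lower, or 6.48% of members. The same threshold took 1.95% of all fitted genes as higher and 9.43% as lower. Without IRV replicates 1 and 2 again 0 members passed, with a lowest adjusted p of 0.907. There 96 members were higher and 115 lower at an unadjusted p under 0.05, or 3.13%, against 1.66% and 1.77% of the 14674 genes fitted. Limma-voom called 0 members in the 16 libraries. DESeq2 called 0 higher and 7 lower (0.154% of genes fitted lower), which were Rab43 and 6 unnamed gene models.

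The one library whose removal gave calls with edgeR was IRV replicate 3, a deep one. Without it 2 members, Eef1d and Ubl7, were higher (0.0297% of members, against 0.0359% of genes fitted) and 135 were lower (2.01%, against 2.97%). Of these 137, 130 belonged to the members that shifted with the shallow IRV pair, described next, and 116 were unnamed models or receptors. Leaving out any other library in turn gave 0 calls among the members.

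Most of the largest estimates moved with the shallow IRV pair. In 171 members the log2 interaction was lower by more than 1 with all 16 libraries than without IRV replicates 1 and 2. Their median was -2.93 in the first fit and -0.16 in the second. They comprised 125 unnamed gene models, 15 receptor genes and 31 other genes, and together took 6684 to 13990 CPM in deep libraries and 175500 to 327900 CPM in shallow ones. One gene moved the other way by more than 1. Slc38a6, an amino acid transporter gene of the SLC38 family, shows the pattern. It stood at 552, 812, 610 and 544 CPM in NV and at 703, 506, 704 and 617 CPM in NP. In injured kidney it stood at 765, 468, 49.1 and 57.5 CPM in IRV and at 30.2, 42.2, 47 and 49.8 CPM in IRP. The shallow IRV libraries lay with the normal kidneys and the deep ones with IRP. Its log2 interaction was -2.96 ± 0.84 (SE) with 16 libraries and -0.34 ± 0.28 without the shallow IRV pair. The same held for Sfi1, a centrosome gene, at -2.05 and -0.53, for D10Wsu102e at -2.73 and -0.09, for the mitochondrial deacylase gene Sirt5 at -2.25 and -0.11, and for the imprinted antisense RNA Kcnq1ot1 at -2.01 and -0.42. Counts of near-identical models and receptor genes are uncertain, because reads can be split between copies. After each library was thinned at random to the smallest total, the median of the 171 was -3.17. Thinning keeps the make-up of each library, so this value cannot tell causes of the shift apart. With the deep or shallow set as a covariate, the median of the 171 was -0.17. Only IRV holds libraries of both sets, so this fit nearly repeats leaving out the shallow pair and is no separate check. The number of members at an unadjusted p under 0.05 was 483 after thinning and 187 with the covariate, against 436. The sets differ in total and in receptor and unnamed-model content together, and whether read processing or library preparation differed between them was not tested.

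**Figure D1:**
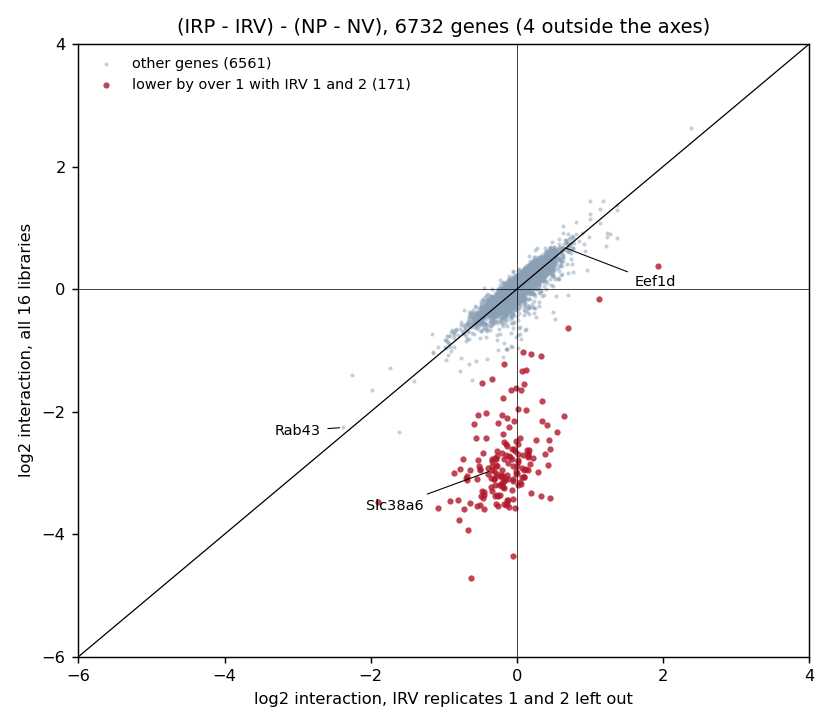
Log2 interaction of each of the 6732 genes without IRV replicates 1 and 2 (horizontal axis) against the value with all 16 libraries (vertical axis); the line marks equal values and 4 genes lie outside the axes. The 171 genes in red sit below the line, with medians of -0.16 on the horizontal and -2.93 on the vertical axis, while Rab43 and Eef1d lie near the line.

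Intervals over all 6732 members bounded the interaction. The median SE of the log2 interaction was 0.237 and the median 95% interval reached 0.5 to either side. In 5548 members (82.4%) the whole interval lay within a 2-fold interaction in either direction, and in 1157 (17.2%) within 1.41-fold. Without IRV replicates 1 and 2 these were 5878 (87.3%) and 1340 (19.9%). The median log2 interaction over members was 0.06 and 59.8% were positive. Without the shallow IRV pair the median was 0.02 and 52.8% were positive. Estimates beyond 1 in size numbered 12 above and 187 below with 16 libraries, and 16 above and 14 below without the pair.

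The arms of the interaction share no library, so they can be set beside each other. Neither arm had a gene past the threshold in edgeR's test with all 16 libraries (0% of genes fitted). The lowest adjusted p was 0.0734 for IRP minus IRV and 0.164 for NP minus NV. At an unadjusted p under 0.05 there were 423 members in the first (6.28% of members, against 13.5% of genes fitted) and 241 in the second (3.58%, against 3.68%). Leaving out deep IRV replicate 3 gave 7 members higher and 212 lower in IRP than IRV, or 0.104% and 3.15%, against 0.0646% and 10.4% of genes fitted. Leaving out deep IRV replicate 4 gave 9 and 205, or 0.134% and 3.05%, against 0.0929% and 10.3%. Leaving out NV replicate 3 or 4 gave 1 member higher in NP each time (0.007% of genes fitted in each). Across the 6732 members the log2 differences of the arms had a Pearson r of 0.01, and 49.3% had the same sign. Without the shallow IRV pair r was -0.06 and 48.1% had the same sign. These are descriptions across genes, which are not independent replicates. No member had IRP wholly above IRV and NP wholly below NV, or the reverse, against 0 and 3 of the 13614 fitted genes (0% and 0.022%). Within the injured arm, IRP lay wholly above IRV in 124 of the 6732 members and wholly below in 83. Within the normal arm, NP lay wholly above NV in 83 members and wholly below in 74. These counts within each arm were not made over all fitted genes, so they are description only and no result about the members. Many genes named below were picked by p, so separated libraries in them are no further support.

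The PARP family, which includes the enzymes that PJ34 inhibits, came first in the comparison. Of 11 PARP family members, 0 passed the test in either direction, 6 were positive and the median log2 interaction was 0.0015, or -0.01 without the shallow IRV pair. Parp1, which encodes the main DNA-break sensor, stood at 35.9, 39.2, 45 and 48.6 CPM in NV and at 37.5, 46.9, 46.8 and 33.6 CPM in NP. In injured kidney it stood at 46.3, 43.8, 49.8 and 50.1 CPM in IRV and at 55.2, 46.7, 51.5 and 49.3 CPM in IRP. Drug and vehicle libraries overlapped in both settings. Its log2 interaction of 0.13 ± 0.19 had a 95% interval from -0.27 to 0.52. Parp2, its close relative, fell short of the CPM minimum at a mean of 12.1 and had an interval from -1.19 to 0.72.

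Within the family, the tankyrase gene Tnks, whose product modifies telomere and Wnt pathway proteins, had the smallest p. It stood at 53, 60.3, 49.5 and 62.5 CPM in NV and at 64.4, 72.9, 59.8 and 74.2 CPM in NP. In injured kidney it stood at 83.3, 62.6, 82.6 and 74.2 CPM in IRV and at 76.1, 74.1, 68.1 and 72.5 CPM in IRP. NP overlapped NV and IRP overlapped IRV. The log2 interaction was -0.33 ± 0.16 (adjusted p = 0.465 in edgeR). Parp4, the vault PARP, had 0.47 ± 0.25, and 0.27 without the shallow IRV pair. Among 6 genes of ADP-ribose removal and base excision repair 5 were positive, with Parg at 0.29 ± 0.26 and the ADP-ribose hydrolase gene Oard1 at 0.34 ± 0.35. Genes of NAD synthesis and use gave 7 of 13 positive. Apart from Sirt5, the lead member was Acmsd, a tryptophan-pathway enzyme gene that limits NAD synthesis, at 0.48 ± 0.36, and 0.74 without the pair.

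Genes of the p53 pathway and of tubular injury stayed without a call. Cdkn1a encodes the cell cycle inhibitor p21, a p53 target, and at a mean of 11.1 CPM it was no member. It stood at 2.56, 6.69, 4.5 and 5.41 CPM in NV and at 3.84, 3.72, 1.09 and 0.781 CPM in NP. In injured kidney it stood at 21.6, 18.8, 14.1 and 14.2 CPM in IRV and at 22, 8.7, 12.3 and 18.2 CPM in IRP. All injured libraries lay above all normal ones, and drug and vehicle overlapped within each. The log2 interaction of 0.88 ± 0.63 had an interval from -0.45 to 2.21. Of 12 p53 and senescence genes 8 were positive, led by Ccng1, a p53-target cyclin gene, at 0.27 ± 0.17. Of 11 cell cycle members 7 were positive. Ccnd1, which encodes cyclin D1, had 0.53 ± 0.21, and Rrm1, a ribonucleotide reductase subunit gene, had 0.37 ± 0.26.

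For the 24 tubular injury genes the median was -0.03 with 11 positive, and -0.11 without the shallow IRV pair, against 0.06 and 0.02 over all members. Havcr1 was at 118, 76, 115 and 133 CPM in IRV and at 114, 21.7, 41.7 and 83.3 CPM in IRP. It was at 1.71, 8.61, 9.9 and 2.32 CPM in NV and at 3.84, 0.744, 3.26 and 3.12 CPM in NP. IRP spread more widely than IRV, with replicate 2 lowest. Because Havcr1 was near the counting floor in normal kidney, the interval of its log2 interaction ran from -1.95 to 2.51. Intervals were as wide for Lcn2, the lipocalin NGAL, from -1.86 to 2.13, and narrower for abundant genes. They ran from -0.55 to 0.49 for Spp1 (osteopontin), from -0.2 to 0.84 for Clu (clusterin) and from -0.95 to 1.02 for Col1a1 (collagen I). Among the tubule genes fixed with them, the intervals ran from -0.34 to 0.75 for Slc34a1, the proximal phosphate transporter, and from -0.27 to 0.73 for Umod, the uromodulin of the loop of Henle. Every one of these intervals held 0.

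**Figure D2:**
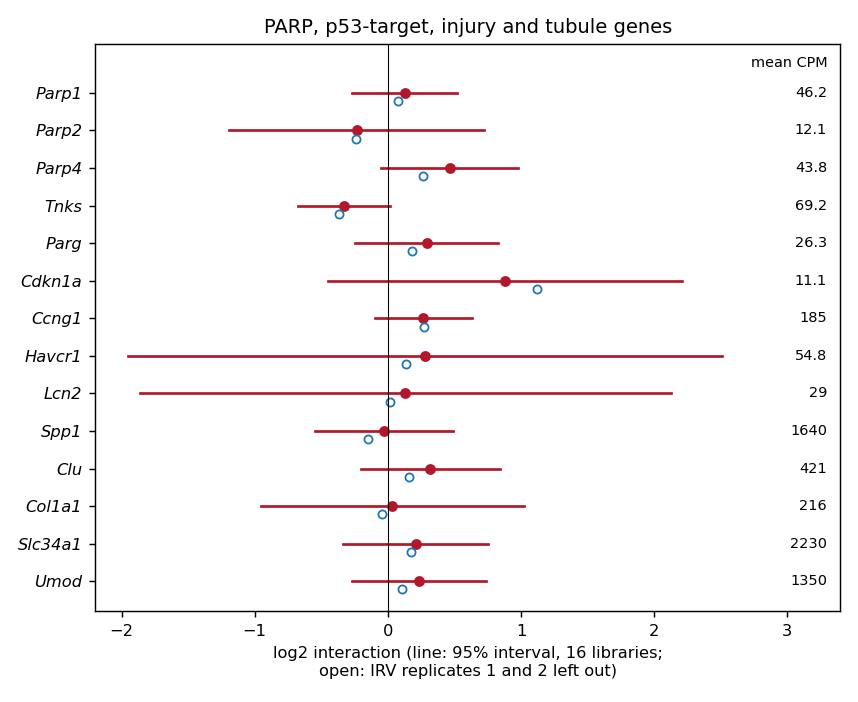
Log2 interaction (horizontal axis) of 14 PARP, p53-target, injury and tubule genes with 16 libraries (filled points, lines for 95% intervals) and without IRV replicates 1 and 2 (open points); mean CPM stands at the right. All lines cross 0, and they are longest for Havcr1 and Lcn2.

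Among named genes, Rab43 had the smallest p. It encodes a small GTPase of the Golgi and endoplasmic reticulum. Its level was 3.42, 7.65, 0 and 12.4 CPM in NV and 29.8, 32.7, 35.9 and 29.7 CPM in NP. In injured kidney it was 44.2, 41.9, 55.8 and 53.6 CPM in IRV and 64.8, 42.6, 55.1 and 57 CPM in IRP. All NV libraries lay below all others, NP lay between, and the injured groups overlapped. This gave a log2 interaction of -2.26 ± 0.47 with 16 libraries (adjusted p = 0.326 in edgeR) and -2.38 ± 0.46 without the shallow IRV pair. The difference came from normal kidney, with 2.40 ± 0.40 for NP minus NV against 0.14 ± 0.24 for IRP minus IRV. Its adjusted p passed the threshold in DESeq2 at 0.00025 and in edgeR without IRV replicate 3 at 0.0407.

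Rhobtb1, which encodes an adaptor of a ubiquitin ligase, also had its larger difference in normal kidney. The log2 difference was 0.53 ± 0.15 for NP minus NV against -0.15 ± 0.13 for IRP minus IRV. Unlike in Rab43, NV overlapped the injured groups. It was at 42.7, 31.6, 30.6 and 27.8 CPM in NV and at 41.3, 48.4, 48.9 and 53.1 CPM in NP. The IRV libraries held 31.9, 30.4, 26.3 and 34.8 CPM and the IRP libraries 29.1, 28.4, 25.1 and 28.4 CPM. NP lay above the other groups except for NV replicate 1. Its log2 interaction came to -0.68 ± 0.20, and -0.66 without the pair.

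In Arhgap31, a GTPase-activating protein gene for Rac1 and Cdc42, the difference lay in injured kidney. Its levels were 42.7, 39.2, 49.5 and 45.6 CPM in NV and 52.9, 50.6, 44.6 and 53.1 CPM in NP. They were 55.5, 49.8, 45.2 and 46.7 CPM in IRV and 37.8, 34.4, 39.5 and 37.8 CPM in IRP. IRP lay wholly below IRV, also below its deep libraries. The fitted log2 interaction was -0.56 ± 0.15, and -0.47 without the pair. The other lead genes on the negative side were Zfp950, Zbtb10, Cyyr1 and Rnf103, at -0.63, -0.64, -0.82 and -0.71, and at -0.55, -0.54, -0.66 and -0.61 without the pair.

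Without IRV replicates 1 and 2, further genes joined the 10 with the smallest p on the negative side. Nt5e encodes CD73, the enzyme that makes adenosine outside cells and marks renal fibroblasts and proximal tubule. Its levels were 40.2, 66, 45.9 and 80.3 CPM in NV and 82.6, 97.4, 84.8 and 59.4 CPM in NP. They were 82.2, 63.2, 81.5 and 80.1 CPM in IRV and 67.3, 45.8, 62.3 and 57.5 CPM in IRP. Drug and vehicle overlapped in normal kidney, and IRP lay below the deep IRV libraries. The log2 interaction was -0.88 ± 0.28 with 16 libraries and -0.93 ± 0.28 without the pair. Map3k1, a kinase gene of the JNK pathway, gave -0.69, the nuclear receptor gene Rora -0.54 and the GABA-B receptor gene Gabbr1 -0.86 in that fit. Each had NP wholly above NV. So did Sh3gl2 (endophilin A1), Cep85l and the ETS repressor gene Etv6, at -0.92, -0.95 and -0.58. In Tmem252 and Dnajc16, at -0.87 and -0.73, NP overlapped NV.

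**Figure D3:**
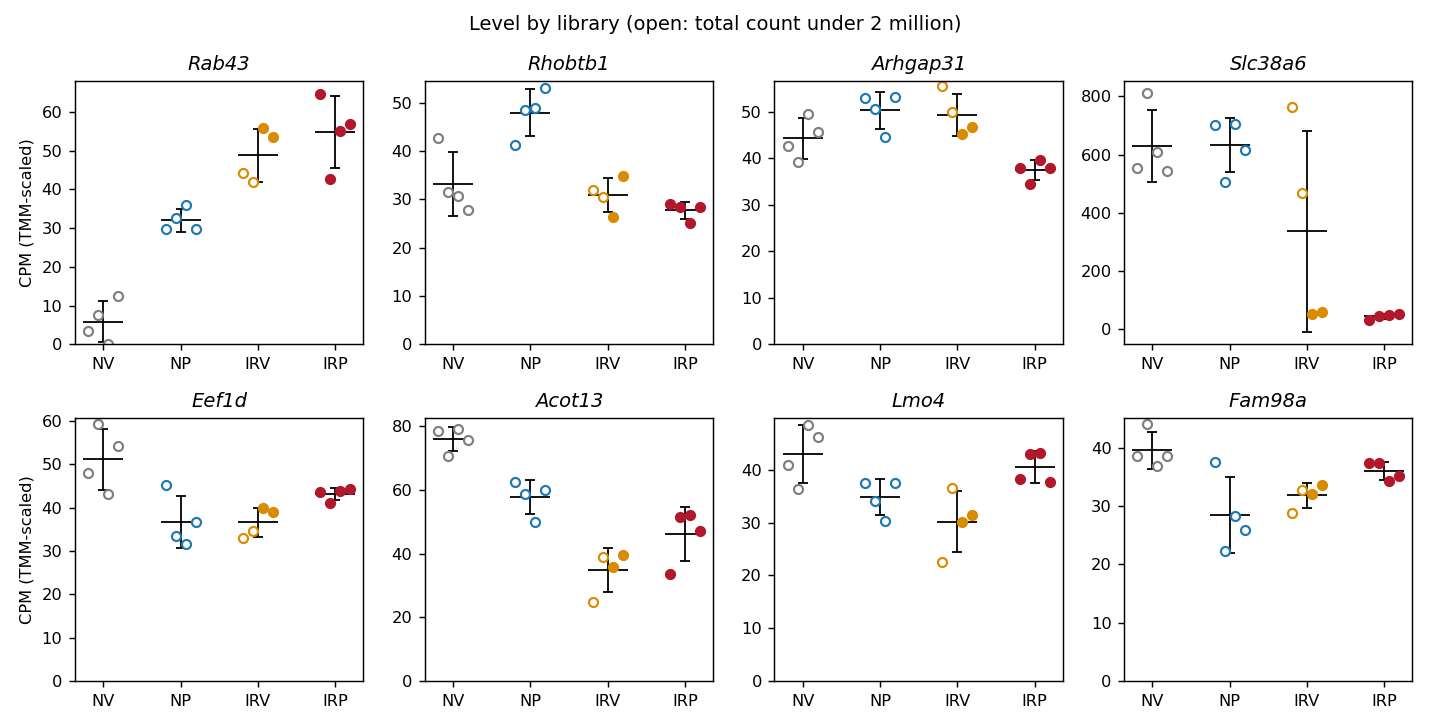
CPM by library (vertical axes, TMM-scaled) of 8 genes in the 4 groups; points are libraries, open where the total count was under 2000000, and bars give the mean ± SD (n = 4). NP stands above NV in Rab43, IRP below IRV in Arhgap31, and Slc38a6 splits IRV into shallow libraries at 765 and 468 CPM and deep ones at 49.1 and 57.5 CPM.

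On the positive side the lead genes had smaller estimates than Rab43. Eef1d encodes a subunit of the translation elongation factor 1 complex. It was at 47.9, 59.3, 43.2 and 54.1 CPM in NV and at 45.2, 33.5, 31.5 and 36.7 CPM in NP. After injury the values were 32.9, 34.6, 40 and 38.9 CPM in IRV and 43.7, 41.1, 43.8 and 44.2 CPM in IRP. IRP lay wholly above IRV, while NP and NV overlapped through NP replicate 1. This gave a log2 interaction of 0.69 ± 0.18, and 0.62 ± 0.20 without the shallow IRV pair.

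Lmo4, a LIM-domain transcription cofactor gene, was at 41, 36.3, 48.6 and 46.3 CPM in NV and at 37.5, 34.2, 30.4 and 37.5 CPM in NP. In IRV it was at 22.6, 36.5, 30.1 and 31.5 CPM and in IRP at 38.2, 43.1, 43.2 and 37.8 CPM. IRP again lay above IRV and NP overlapped NV. Its log2 interaction came to 0.71 ± 0.19 in each fit.

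Acot13, a thioesterase gene of mitochondrial fatty acid handling, had its clearer separation in normal kidney. It was at 78.7, 70.8, 79.2 and 75.7 CPM in NV and at 62.5, 58.8, 50 and 60.1 CPM in NP. The IRV libraries held 24.7, 38.9, 35.9 and 39.6 CPM and the IRP libraries 33.7, 51.5, 52.3 and 47.1 CPM. NP lay wholly below NV, and IRP overlapped IRV through IRP replicate 1. The fitted log2 interaction was 0.76 ± 0.21, and 0.69 without the pair.

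The other lead genes on the positive side were spread over several functions. Rpn1 and Emc10 belong to the endoplasmic reticulum, as subunits of the oligosaccharyltransferase and of the membrane protein complex EMC, and had 0.52 and 0.64. C1galt1c1 encodes Cosmc, the chaperone of an O-glycosylation enzyme, and had 0.79. Fam98a, Ubl7 and Mfsd11 had 0.65, 0.87 and 0.61, and the linker histone gene Hist1h1c had 0.85. Without the shallow IRV pair these 7 ran from 0.44 in Rpn1 to 0.99 in Hist1h1c. The further genes with the smallest p in that fit were Ndufb2, a complex I subunit gene, at 0.94, Slc16a13, a monocarboxylate transporter family gene, at 0.77, and Ethe1, a mitochondrial sulfide-oxidising enzyme gene, at 0.69.

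Tubule and mitochondrial gene lists had positive medians, with 0 genes past the test in any of them. In whole tissue, fewer cells of a type and less RNA per cell cannot be told apart. Of 60 respiratory chain genes 52 were positive in each fit, with medians of 0.23 and 0.23 against 0.06 and 0.02 over all members. By enzyme, 20 of 22 complex I genes, 4 of 4 complex II, 8 of 9 complex III, 7 of 10 complex IV and 13 of 14 ATP synthase genes were positive. In complex IV 3 genes, and elsewhere in the chain none, had an unadjusted p under 0.05 in the fit of 16 libraries. One of them was Cox5a, a nuclear-encoded subunit gene, at 83.8, 75.6, 81.9 and 82.6 CPM in NV and 63.4, 88.5, 68.5 and 83.6 CPM in NP. After injury the values were 43.2, 51.7, 39.8 and 46.3 CPM in IRV and 47.8, 64.5, 60.5 and 55.9 CPM in IRP. Injured libraries lay lower than normal ones with an overlap at the edge, and IRP overlapped IRV. Its log2 interaction was 0.43 ± 0.18, and 0.50 without the pair. Cox6a1 had 0.47 ± 0.22.

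Other mitochondrial lists were alike in sign. Of 20 citric acid cycle genes 18 were positive with a median of 0.19, and of 43 fatty acid oxidation genes 29 with 0.13. Without the shallow IRV pair these were 17 with 0.13 and 27 with 0.10. Acaa1a, a peroxisomal thiolase gene, had 0.62 ± 0.26, and Acsl1, which activates long-chain fatty acids, 0.40 ± 0.18. Of the 15 genes of the mitochondrial genome 11 were positive with a median of 0.24, and 0.43 without the shallow IRV pair. In mt-Atp6, an ATP synthase subunit, IRP ran from 7580 CPM in replicate 1 to 22000 CPM in replicate 2 and IRV from 6620 to 15300 CPM, and the log2 interaction was 0.62 ± 0.46. Antioxidant and NRF2 genes were positive in 25 of 32 with a median of 0.16, and in 20 of 32 with 0.09 without the pair. Among them Gpx4, the lipid peroxidase that protects against ferroptosis, had 0.54 ± 0.20. Gpx4 was also on the list of 10 cell death genes, of which 7 were positive. Glycolysis and hypoxia genes were positive in 15 of 20, and in 13 of 20 without the pair. They went both ways at the top, with Pfkp (phosphofructokinase) at -0.58 ± 0.24 and Ldha (lactate dehydrogenase) at 0.38 ± 0.18.

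Along the nephron, 46 of 52 proximal tubule genes were positive with a median of 0.19, and 37 of 52 with 0.12 without the shallow IRV pair. Dpep1, a brush border dipeptidase gene, had 0.55 ± 0.22 and 0.55 in the respective fits. Loop of Henle and distal tubule genes were positive in 24 of 26 with a median of 0.29, and 0.28 without the pair. Bsnd encodes barttin, the subunit of the ClC-K chloride channels. It was at 29.1, 45.9, 35.1 and 34 CPM in NV and at 34.6, 32.7, 28.3 and 35.1 CPM in NP. In IRV it was at 12.3, 26.1, 27 and 27.6 CPM and in IRP at 22.5, 50, 48.2 and 36.6 CPM. IRP overlapped IRV through IRP replicate 1. Its log2 interaction was 0.79 ± 0.35, and Kcnj1, the ROMK potassium channel gene, had 0.52 ± 0.26. Collecting duct genes were positive in 14 of 17 with a median of 0.36 in each fit. Aqp6 and Foxi1, a channel gene and a transcription factor gene of intercalated cells, had 0.92 ± 0.42 and 0.59 ± 0.33. Podocyte genes were mixed, at 8 of 14 positive with a median of 0.08, and at 5 of 14 with -0.04 without the shallow IRV pair.

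**Figure D4:**
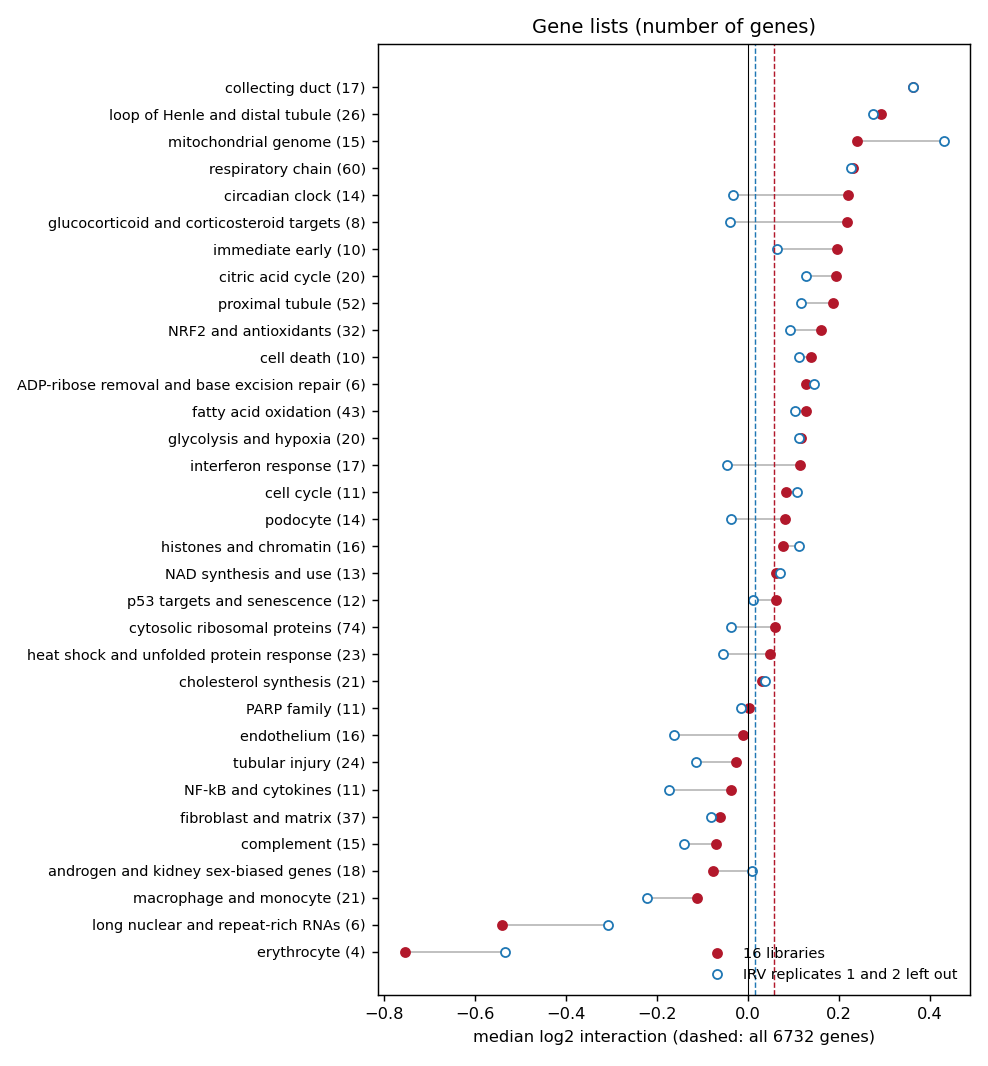
Median log2 interaction (horizontal axis) of the 33 gene lists with at least 4 members, with 16 libraries (filled) and without IRV replicates 1 and 2 (open); dashed lines give the medians over all 6732 genes. Tubule segment and mitochondrial lists lie to the right in each fit, macrophage, complement and globin-holding erythrocyte lists to the left.

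These list medians arose in the injured arm and varied between IRP libraries. For respiratory chain genes the median was 0.24 for IRP minus IRV and 0.0008 for NP minus NV, and for the loop of Henle 0.29 and -0.03. The mean log2 level of the respiratory chain, relative to the NV mean, was -0.92, -0.28, -0.56 and -0.58 in IRP and -1.15, -0.57, -0.87 and -0.73 in IRV. The groups overlapped, with means of -0.59 ± 0.26 (SD, n = 4) and -0.83 ± 0.24 (SD, n = 4). The order of IRP libraries was the same for proximal tubule genes, at -1.08, -0.18, -0.70 and -0.73. It was reversed for tubular injury genes, at 2.41, 1.45, 1.94 and 2.11, and for macrophage genes, at 3.19, 1.85, 2.67 and 2.73. IRP replicate 1 thus held the most and replicate 2 the least injury marker RNA of the group, and the share of counts from the mitochondrial genome was 12.98% and 25.07% in them. Without IRP replicate 2 the median log2 interaction was 0.11 for the respiratory chain, -0.02 for the proximal tubule, -0.08 for the mitochondrial genome and 0.15 for the loop of Henle. Without IRP replicate 1 it was 0.34 for the respiratory chain, 0.32 for the proximal tubule, 0.50 for the loop of Henle and 0.61 for the collecting duct. The part of this spread in injury in the list medians was not tested.

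**Figure D5:**
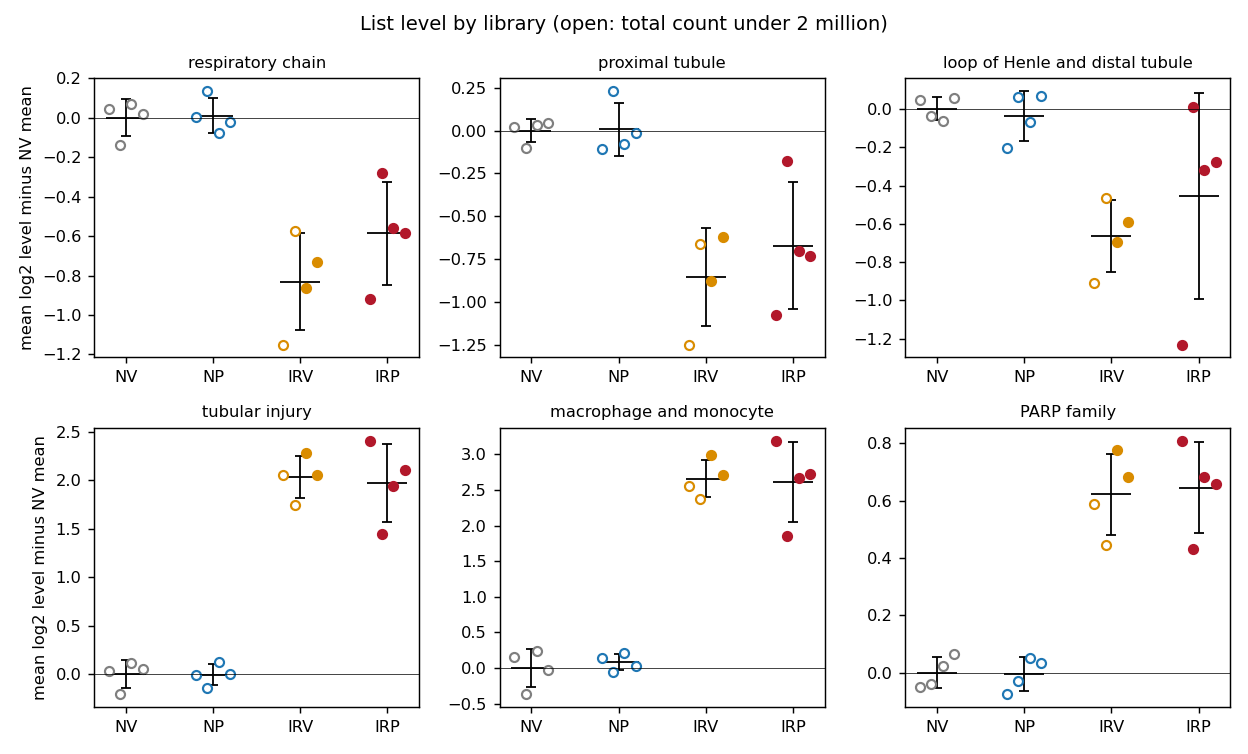
Mean log2 level of 6 gene lists relative to the NV mean (vertical axes) by library in the 4 groups; open points are libraries with a total under 2000000 and bars give mean ± SD (n = 4). IRP and IRV overlap in each panel, and IRP replicates 1 and 2 stand at opposite ends of IRP.

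Lists of immune and stromal cells had medians near or below 0, with 0 genes past the test. Macrophage and monocyte genes were positive in 7 of 21 with a median of -0.11, and -0.22 without the shallow IRV pair. Laptm5, a lysosomal membrane protein gene of blood cells, was at 13.7, 4.78, 5.4 and 6.95 CPM in NV and at 14.4, 17.1, 14.1 and 10.2 CPM in NP. The IRV libraries held 58.6, 55.9, 97 and 72.4 CPM and the IRP libraries 105, 45.8, 78.4 and 91.3 CPM. NP overlapped NV only through NV replicate 1. Its log2 interaction was -0.70 ± 0.48. Ctss (cathepsin S) had 0.67 ± 0.55, the opposite sign. Complement genes were positive in 5 of 15. C3, the central complement component, had -0.84 ± 0.43, with NV at 123, 59.3, 117 and 85.7 CPM and NP at 138, 128, 260 and 122 CPM. NP replicate 3 was the highest, and NP overlapped NV by the margin between 122 and 123 CPM. C7, of the membrane attack complex, had -0.94 ± 0.53. Fibroblast and matrix genes were positive in 14 of 37, interferon response genes in 10 of 17, and NF-kB and cytokine genes in 5 of 11, and in 11, 8 and 4 without the shallow IRV pair. Endothelial genes were positive in 8 of 16 with a median of -0.01, and in 5 of 16 with -0.16 without the pair, where 3 were lower at an unadjusted p under 0.05. Only 2 lymphocyte and 2 adipose, adrenal and muscle genes, and 0 neutrophil genes, reached the CPM minimum.

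The medians of hormone, clock and stress lists fell without the shallow IRV pair. Circadian clock genes were positive in 10 of 14 with a median of 0.22, and the median was -0.03 without the pair. Glucocorticoid targets went from 0.22 to -0.04 and immediate early genes from 0.20 to 0.06. Dbp, a clock output gene, was at 7.2 and 20.1 CPM in the shallow IRV libraries and at 32.8 and 46.8 CPM in the deep ones, with IRP at 38.8, 76.1, 65.1 and 28.3 CPM. NV was at 29.9, 44, 41.4 and 54.8 CPM and NP at 25.9, 32.7, 35.9 and 48.4 CPM. Its log2 interaction was 1.03 ± 0.54, and 0.64 without the pair. Fkbp5, a glucocorticoid-induced co-chaperone gene, had -0.71 ± 0.32, and Mt1 (metallothionein) 0.63 ± 0.24. Without the pair they had -0.87 and 0.50, so Fkbp5 did not shrink. The immediate early gene Egr1 was at 3.42, 5.74, 13.5 and 1.54 CPM in NV and at 11.5, 41.7, 6.52 and 4.69 CPM in NP, so that NP replicate 2 stood apart. Egr1 had -1.65 ± 0.82, and -1.99 ± 0.73 without the pair. Atf4, of the integrated stress response, had 0.57 ± 0.25, and 0.40 without the pair. It was among 23 heat shock and unfolded protein genes, of which 14 were positive with a median of 0.05. Without the pair 10 of these 23 were positive, with a median of -0.05.

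The enzymes of cholesterol synthesis were evenly split at 11 of 21 positive, but 3 of them had an unadjusted p under 0.05 on the negative side. Sqle, squalene epoxidase, was at 54.7, 58.3, 72.9 and 59.5 CPM in NV and at 53.8, 84.8, 88.1 and 80.4 CPM in NP. After injury the values were 43.2, 38.9, 39.3 and 39.5 CPM in IRV and 39.8, 37.7, 30.3 and 29.7 CPM in IRP. NP replicates 2, 3 and 4 lay above NV and NP replicate 1 below it. The log2 interaction was -0.54 ± 0.21, and -0.51 without the pair. Insig1, a sterol sensor gene, had -0.66 ± 0.24, and -0.42 without the pair.

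The most negative median belonged to 4 erythrocyte genes, at -0.75, and -0.53 without the shallow IRV pair. Of these, 3 were negative and 1 was positive. The positive one was Slc4a1, at 0.40, which is also on the collecting duct list. The globin gene Hba-a1 was at 41.9, 37.3, 41.4 and 32.4 CPM in NV and at 39.4, 138, 51.1 and 80.4 CPM in NP. In IRV it was at 20.6, 46.8, 33.8 and 25.4 CPM and in IRP at 27.8, 47.3, 25.1 and 30 CPM. NP replicate 2 was the highest of all libraries, and without it the list median was -0.36. Hbb-bs had -0.94 ± 0.47. Copies of the globin genes are near-identical, so their split between copies is uncertain. Long nuclear and repeat-rich RNAs were negative in 6 of 6 with a median of -0.54, and -0.31 without the pair. Neat1, the scaffold of paraspeckles, was at 367, 373, 425 and 307 CPM in NV and at 328, 408, 394 and 583 CPM in NP. The IRV libraries held 393, 447, 436 and 399 CPM and the IRP libraries 313, 334, 301 and 319 CPM. IRP lay wholly below IRV, also below its deep libraries, and NP overlapped NV. This gave a log2 interaction of -0.62 ± 0.21, and -0.61 ± 0.23 without the pair. Cytosolic ribosomal protein genes were positive in 47 of 74, with Rps3 at 0.51 ± 0.19, but in 33 of 74 without the pair. Histone and chromatin genes gave 9 of 16 positive and androgen and sex-biased kidney genes 8 of 18.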

How the data were processed

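Poly(A) RNA was sequenced from directional libraries, per the labels' protocols. The values are expected counts as deposited, estimated for each gene by the authors with Salmon 1.3.0 on GRCm39 per the submitters' processing notes, with no normalization. All values were whole numbers. Symbols were matched for 40276 of 40472 identifiers from an annotation of an older build, so no coordinates are given.

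Counts were scaled by TMM and fitted with edgeR 4.0.16 (R 4.3.3; quasi-likelihood, filterByExpr at a minimum count of 10) over 16 libraries with group as the only term. Printed CPM are TMM-scaled, and the CPM minimum of 20 used library totals. SEs and 95% intervals are those implied by the test. Limma 3.58.1 and DESeq2 1.42.0 were alternatives, beside other scalings, filters, thinning, covariates and removal of libraries. The interaction fit was tested on simulated data. At an adjusted p under 0.05 it recovered 19 of 100 genes changed 2-fold and 75 of 100 changed 4-fold. A lack of calls is therefore no sign that interaction was absent.

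Named genes were the 10 smallest p per direction in each fit (unnamed models and receptors left out), up to 2 per list, and 10 preset genes, and some of these are not described. The genes and the 36 lists were chosen with earlier results of these data known.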

Additional observations from a re-analysis of the deposited data

Results flagged for a closer look

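Within each group of 4 libraries, a gene's highest or lowest library was marked where its distance to the next, divided by the group's range, passed Dixon's 95% critical value. Of 320 groups tested over the genes named here, 20 were marked, and chance marks about 1 in 20. In IRV the marked values were 12.3 CPM for Bsnd, 66.8 CPM for Ccnd1 and 43.2 CPM for Sqle in replicate 1, and 46.8 CPM for Zfp950 and 63.2 CPM for Nt5e in replicate 2. Both libraries are shallow. In IRP they were 37.3 CPM for Acaa1a and 25.1 CPM for Foxi1 in replicate 1, 41.1 CPM for Eef1d in replicate 2, 58.2 CPM for Fkbp5 in replicate 3 and 46.9 CPM for Emc10 in replicate 4. In NP they were 29.8 CPM for Mt1 in replicate 2, and 260 CPM for C3 and 82.6 CPM for Acmsd in replicate 3. In NV replicate 2 they were 0 CPM for Lcn2, 453 CPM for Spp1 and 2790 CPM for Slc34a1. In NV replicate 3 they were 44.1 CPM for Etv6 and 63 CPM for Hbb-bs, and in NV replicate 4 they were 32.4 CPM for Ethe1 and 205 CPM for Kcnj1.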

How the results depend on the processing

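The counts of 0 members for the interaction held under every setting run except 2. DESeq2 gave 7 lower, and removal of single libraries gave 0 to 2 higher and 0 to 135 lower, with the upper ends without IRV replicate 3. For IRP minus IRV, library totals as the only scaling gave 1 higher and 140 lower, no low-count filter 2 and 171, and DESeq2 4 and 186. The higher ones were 0.0149%, 0.0297% and 0.0594% of members, against 0.00735%, 0.0222% and 0.0367% of genes fitted. The lower ones were 2.08%, 2.54% and 2.76% of members, against 3.09%, 2.68% and 9.38% of genes fitted. Removal of single libraries gave 0 to 9 higher and 0 to 212 lower. For NP minus NV, no filter gave 2 higher (0.0297% of members, against 0.00494% of genes fitted). DESeq2 gave 3 (0.0446%, against 0.022%), and removal of single libraries 0 to 1 (at most 0.0149%, against 0.007%). The cause was not tested. With the replicate number as a block, 0 members were called in any comparison. Same-numbered libraries did not deviate together (correlations of -0.24 to 0.33, 6 of 24 over 0.1, and 4 of 16 libraries closest to their own number). The median of all members was 0.121 with library totals and 0.179 with no filter, against 0.058, and such shifts apply to the list medians too.

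Of the 80 genes followed under each setting, signs near 0 turned in 5, none past the threshold. Over all members 1072 (15.9%) changed sign without the shallow IRV pair. Havcr1 was at -0.00592 with the block and deep IRV libraries only and at -0.215 in limma-voom, and ran from -0.178 to 0.556 as libraries were removed. Lcn2 was at -0.036 with the block, -0.00111 with the block and deep IRV libraries only, -0.0525 after thinning and -0.0856 in limma-voom, and ran from -0.23 to 0.796. Spp1 was at 0.0789 with library totals and 0.103 with no filter, and ran from -0.19 to 0.096. Col1a1 was at -0.044 with deep IRV libraries only, -0.052 with the depth set as a covariate, -0.119 with the block, -0.0761 with both, -0.131 after thinning, -0.0304 with only members fitted and -0.153 in limma-voom, and ran from -0.205 to 0.288. Slc34a1 ran from -0.00207 without IRP replicate 2 to 0.343. At totals of 973812 to 1659983 counts, the shallow libraries hold few reads for genes near 20 CPM, which limits the precision for such genes.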

Other observations

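Rab43 was looked at further because of its values. Isy1, a splicing factor gene that lies beside Rab43 in the RefSeq table of the older build GRCm38, is no member at a mean of 16.9 CPM. It stood at 5.13, 11.5, 13.5 and 9.27 CPM in NV and at 21.1, 15.6, 14.1 and 23.4 CPM in NP. In injured kidney it stood at 13.4, 18.8, 17.5 and 19.2 CPM in IRV and at 19.1, 19.7, 21.6 and 19.8 CPM in IRP. As with Rab43, the NV mean was lowest and all NP libraries lay above NV, while IRP overlapped IRV. Unlike in Rab43, NV was not wholly apart, as NV replicate 3 at 13.5 CPM passed IRV replicate 1 at 13.4 CPM. The log2 interaction was -0.75 ± 0.31, and -0.80 ± 0.32 without IRV replicates 1 and 2 (adjusted p of 0.365 and 1 in edgeR).

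Some unnamed gene models were near all-or-none between libraries. Gm10222 was at 0 in all NV libraries and at 0, 315, 0 and 1250 CPM in NP, against 99.7 to 512 CPM in IRV and 128 to 419 CPM in IRP. Gm28438 was at 0 in 7 of 8 normal libraries and at 484 CPM in NP replicate 4. In IRV it was at 0 in the shallow libraries and at 168 and 229 CPM in the deep ones. DESeq2 called each for the interaction.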
